A study of Mus musculus with 6 samples.

Results

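The cornified envelope is the cross-linked protein shell that replaces the plasma membrane of a keratinocyte as it dies at the skin surface. Of the 16131 genes in the deposited table, 51 linked to this envelope, its making or its shedding are described here. They were chosen by name: all listed Sprr and Lce genes, and 15 further genes that encode loricrin, involucrin, the filaggrin-type proteins, transglutaminases and other late keratinocyte proteins. Keratinocytes switch these genes on as they leave the spinous layer. Involucrin and other early scaffold proteins are laid under the membrane first, loricrin and the small proline-rich (SPRR) proteins are then bound in by transglutaminases, and the late cornified envelope (LCE) proteins come last. Some SPRR genes are also known to be raised in keratinocytes at wound edges and under stress.

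Skin was collected 7 days after wounding from diabetic C57BL/6 mice, in which streptozotocin (STZ) had destroyed the insulin-producing cells. Daily applications of 10 µl held either phosphate-buffered saline (PBS) or recombinant fibroblast growth factor 4 at 100 ng/ml (rFGF4), so that diabetes, strain and wounding were common to both groups. Each group had 3 poly(A) libraries. Separate animals are not stated in the labels, and p-values therefore cover only the variation among these 6 libraries, part or all of which could be technical. The tissue is skin as a whole, in which fewer cells of a type and less RNA per cell cannot be told apart.

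Values are FPKM, read fragments scaled to transcript length and library size, which keep no read counts, so the depth behind a value is unknown. Summed over all listed genes they came to 304717 to 319807 FPKM per library. Basal keratinocyte keratins were abundant in every library (Krt14 1079 to 3776 FPKM), as were those of the spinous layer (Krt10 149 to 725 FPKM), so epidermis was present in all 6. The 51 genes made up 0.629%, 0.814% and 0.374% of all listed FPKM in PBS replicates 1 to 3 and 0.446%, 0.534% and 0.540% in rFGF4 replicates 1 to 3. PBS replicate 3 was the lowest library for this share and also for the summed basal and spinous lists, and the groups overlapped.

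The comparison asks which of these genes differ between rFGF4-treated and PBS-treated skin. Of the 51 genes, 47 had 1 FPKM or more in 3 or more libraries. These entered the test on log2(FPKM + 0.1), a scale that understates the change of low genes, with limma and Benjamini-Hochberg adjustment over all 14676 tested genes. At an adjusted p under 0.05, the threshold for a call, Krtdap, Sprr2g and Sprr2h fell with rFGF4 and no member rose. Among all genes tested 12.1% changed, 3.62% lower and 8.46% higher, and the 3 members that fell are 6.38% of those tested. At an unadjusted p under 0.05 there were 4 members, all lower, the fourth being Sprr2i. The members' median log2 fold change was -0.14, with 26 negative and 21 positive, beside a median of 0.19 for all tested genes. For 43 of the 47 members the 95% interval of the log2 fold change included 0, with a median width of 2.01 log2 units, so a gene that was not called is not shown to be unchanged. The groups did not overlap in 4 members that were lower (Krtdap, Sprr2g, Sprr2h and Sprr2i) and in 1 that was higher (Flg2), beside 7.36% and 30.9% of all tested genes.

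**Figure D1:**
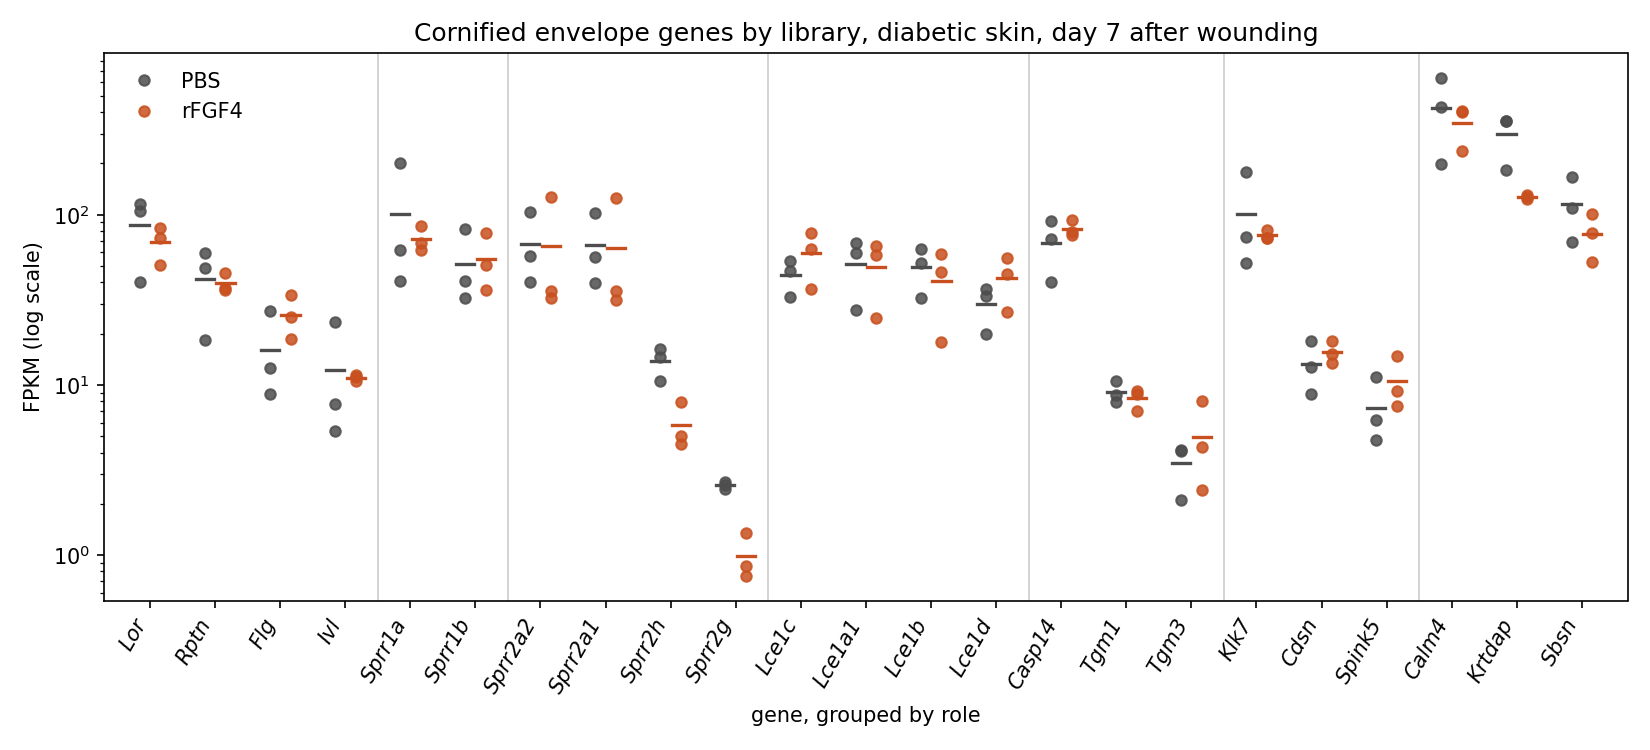
FPKM on a log scale (vertical axis) of 23 cornified envelope genes grouped by role (horizontal axis), with 1 point per library and a bar at each group's mean, PBS in grey and rFGF4 in orange. Krtdap, Sprr2h and Sprr2g are the genes plotted whose points do not overlap between the groups.

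Fold changes in these libraries rose with transcript length, and most of the members have short transcripts. Among tested genes of 400 to 1000 bases 19.8% were called lower and the median log2 fold change was -0.34. Of the 31 tested members in that range, 3 were called lower (9.68%), and their median was -0.16. With the trend on length removed from each library, 2.16% of genes with a known length were called and 0 of the 47 members by limma, where 7 members had an unadjusted p under 0.05, 3 lower and 4 higher. The members' median was then 0.076. What the length trend contributes to each single value was not tested.

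**Figure D2:**
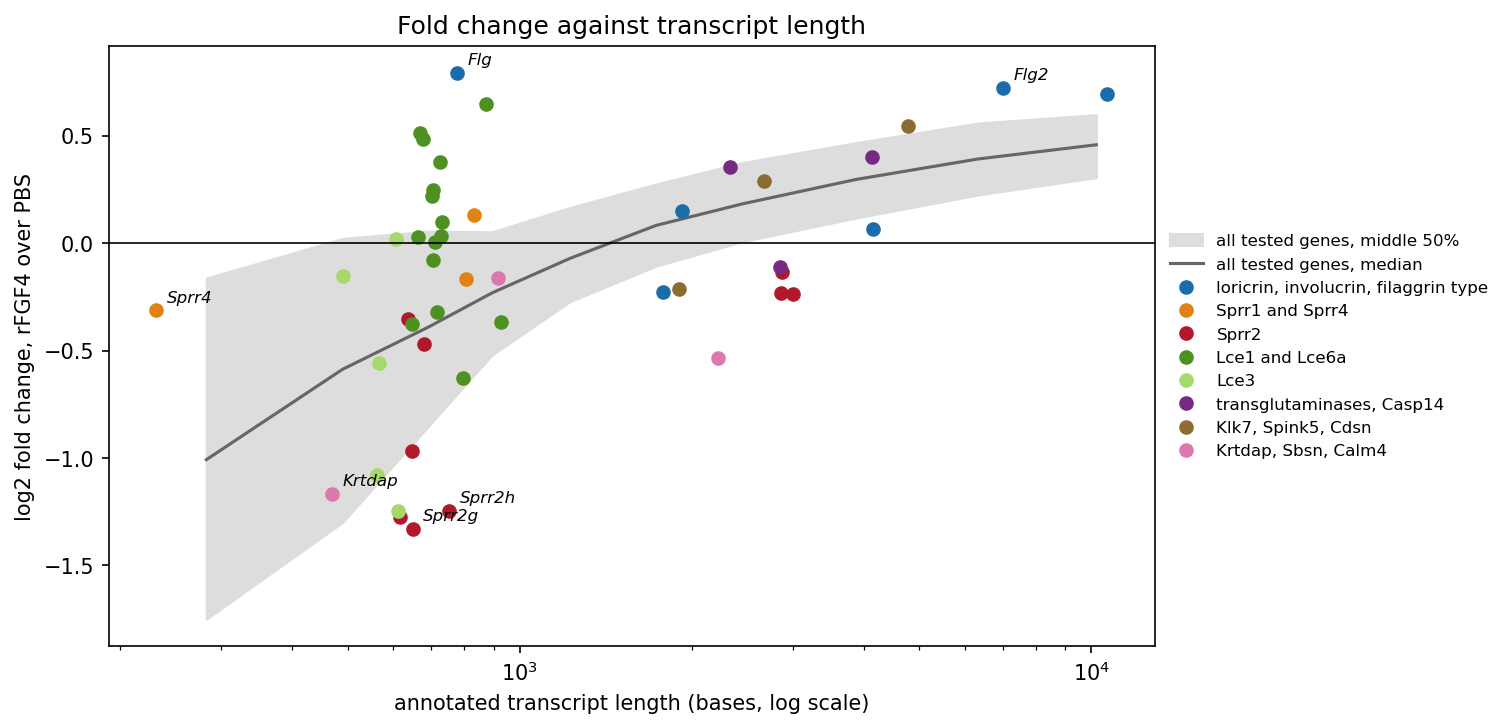
Log2 fold change of rFGF4 over PBS (vertical axis) against annotated transcript length in bases (log axis) for the 47 tested members, coloured by role, over the median (line) and middle 50% (band) of all tested genes in classes of length. The median line lies below 0 at short lengths, where Krtdap, Sprr2g and Sprr2h lie, and most Lce1 genes lie above its median line.

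Loricrin, involucrin and the filaggrin-type proteins form the scaffold and the keratin matrix of the envelope, and 0 of their 6 genes were called (limma, 0 also at an unadjusted p under 0.05). Lor encodes loricrin, the most abundant envelope protein. It measured 116, 105 and 40.3 FPKM in PBS replicates 1 to 3 and 50.3, 72.8 and 83.6 FPKM in rFGF4 replicates 1 to 3. All rFGF4 values lay between the lowest and the highest PBS value, and the log2 fold change was -0.23 (SE 0.42, limma adjusted p = 0.757). Per spinous keratinocyte RNA, as a percentage of the summed FPKM of 9 spinous genes, Lor stood at 8.61%, 5.82% and 7.29% with PBS and 3.57%, 6.69% and 7.19% with rFGF4.

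Ivl encodes involucrin, an early scaffold protein. Its values were 7.71, 23.5 and 5.38 FPKM with PBS and 10.5, 11.2 and 11.4 FPKM with rFGF4. PBS replicate 2 stood far above every other library, while the rFGF4 libraries were nearly equal. The log2 fold change of 0.15 (SE 0.50, limma adjusted p = 0.866) changed sign with other scalings. Rptn, which encodes the S100-fused protein repetin, showed the same wide PBS spread of 18.4, 59.3 and 48.6 FPKM around rFGF4 values of 37.0, 36.1 and 45.5 FPKM. Its groups overlapped fully, with a log2 fold change of 0.064 (limma adjusted p = 0.934) whose sign also depended on the scaling.

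Filaggrin, filaggrin-2 and hornerin lie side by side and bundle keratin or fill the cornified cell. Flg measured 8.89, 27.0 and 12.5 FPKM with PBS and 18.6, 25.2 and 33.6 FPKM with rFGF4. The groups overlapped through PBS replicate 2, and the log2 fold change was 0.79 (SE 0.42, limma adjusted p = 0.244). Hrnr ranged from 2.89 to 11.3 FPKM with PBS and from 5.68 to 14.7 FPKM with rFGF4, with a log2 fold change of 0.70 (limma adjusted p = 0.418). Flg2 had 1.86, 1.46 and 0.778 FPKM with PBS and 2.25, 1.94 and 2.41 FPKM with rFGF4. Its rFGF4 libraries all exceeded its PBS libraries, but the log2 fold change of 0.72 (SE 0.31) had a limma adjusted p of 0.164. The transcript of Flg2 is long (7011 bases), in a class where 19.6% of genes were called higher. The annotated principal transcript of Flg, at 777 bases, is a fragment of the gene, so its place in the plot against length is uncertain.

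SPRR proteins act as cross-bridges between envelope proteins. Sprr1a was measured at 62.1, 201 and 40.9 FPKM with PBS and 85.8, 61.9 and 68.0 FPKM with rFGF4, and Sprr1b at 40.6, 81.9 and 32.5 FPKM with PBS and 77.9, 35.9 and 50.8 FPKM with rFGF4. In both genes PBS replicate 2 was the highest library and PBS replicate 3 the lowest, and the groups overlapped. On the log2 scale they differed by -0.17 (SE 0.55) and 0.13 (SE 0.41) between the groups, with limma adjusted p of 0.866 and 0.855. Without PBS replicate 2 that of Sprr1a was 0.50. Sprr4 varied more than any other tested member among PBS libraries, from 0.969 to 71.4 FPKM, the highest value again being PBS replicate 2.

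The Sprr2 cluster held both SPRR genes that fell. Sprr2h measured 10.5, 16.2 and 14.5 FPKM in PBS replicates 1 to 3 and 5.01, 4.52 and 7.90 FPKM in rFGF4 replicates 1 to 3. Every rFGF4 library was below every PBS library. The means were 13.7 ± 2.93 and 5.81 ± 1.83 FPKM (SD, n = 3 each), a log2 fold change of -1.25 (SE 0.25, limma adjusted p = 0.0314), or 2.37-fold lower. Sprr2h lies on chromosome 3 (GRCm38, 92385685 to 92387324, plus strand) and shares no 100-base stretch with another annotated transcript.

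Sprr2g, its neighbour (chromosome 3, 92373915 to 92375229, plus strand), is annotated as a polymorphic pseudogene in GENCODE M21. It was a low gene, with 2.43, 2.57 and 2.68 FPKM with PBS and 1.35, 0.857 and 0.751 FPKM with rFGF4. The groups were fully separate and the PBS libraries nearly equal. Means were 2.56 ± 0.125 and 0.987 ± 0.321 FPKM (SD, n = 3 each), with a log2 fold change of -1.33 (SE 0.24, limma adjusted p = 0.0242). Of the rFGF4 libraries only replicate 1 was above 1 FPKM, so the gene entered the test through its PBS values. With 1 instead of 0.1 FPKM added to each value, the log2 fold change was -0.85 (limma adjusted p = 0.0199). Under a filter of 5 FPKM the gene was not tested. Sprr2i gave 2.37, 2.42 and 5.61 FPKM with PBS and 2.35, 0.700 and 1.18 FPKM with rFGF4. Its groups were barely separate, since rFGF4 replicate 1 lay just under PBS replicate 1, and its log2 fold change of -1.27 (SE 0.49) did not pass the test (limma adjusted p = 0.130).

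The size of both differences changed little when a library was left out, at -1.09 to -1.49 for Sprr2h and -1.17 to -1.56 for Sprr2g on the log2 scale, but most of those fits did not pass the threshold. Sprr2h was called without rFGF4 replicate 3 (limma adjusted p = 0.0299) but not without PBS replicate 1, 2 or 3 or rFGF4 replicate 1 or 2 (0.0715 to 0.105). Sprr2g was called without rFGF4 replicate 1 (0.0255) but not without PBS replicate 1, 2 or 3 or rFGF4 replicate 2 or 3 (0.0566 to 0.0905). After removal of the length trend Sprr2h and Sprr2g each stood at -0.88 on the log2 scale (adjusted p of 0.229 and 0.208 by limma), and 21.4% of genes of 600 to 800 bases, a class that holds both, were called lower. In the authors' deposited table the q-values of Sprr2h and Sprr2g were 0.000356 and 0.00350, and Krtdap was the other member of 3 with a q-value under 0.05.

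All 9 tested Sprr2 genes had negative log2 fold changes, from -0.14 to -1.33 with a median of -0.47, as did 9 of 9 with quantile normalization and 8 of 9 (all but Sprr2k) with the length trend removed. Apart from Sprr2a1, Sprr2a2 and Sprr2a3 their transcripts are 617 to 752 bases long, and all tested genes of 600 to 800 bases had a median of -0.39. Sprr2a1, Sprr2a2 and Sprr2a3, of 2867 to 3003 bases, fall in classes with medians of 0.18 and 0.30. Without PBS replicate 1, rFGF4 replicate 2 or rFGF4 replicate 3, 6 of 9 were negative, and Sprr2a1, Sprr2a2 and Sprr2a3 were positive, at most at 0.44. Sprr2a1 and Sprr2a2, the most abundant, were at 102 and 103 FPKM in PBS replicate 1 and at 125 and 128 FPKM in rFGF4 replicate 1, but at 31.3 to 57.1 FPKM in the other 4 libraries. Replicate 1 was thus high in both groups, the difference on the log2 scale was -0.24 and -0.23 (limma adjusted p = 0.820 and 0.821), and both were positive, at most 0.14, without PBS replicate 1, rFGF4 replicate 2 or rFGF4 replicate 3. The annotated transcripts of these genes share 89.0% and 92.8% of their 100-base stretches with each other, so how reads were split between them is uncertain. Sprr2d was at 7.31, 14.5 and 25.2 FPKM with PBS against 10.4, 11.3 and 8.48 FPKM with rFGF4, and Sprr2e at 2.11, 1.76 and 5.39 FPKM against 1.11, 0.965 and 2.26 FPKM. PBS replicate 3 was the highest library for 5 of the 9 tested Sprr2 genes, and rFGF4 replicate 2 the lowest for 6. Sprr2b, Sprr2f and Sprr2j-ps were too low to test; Sprr2b was listed at 0 in PBS replicate 1 and rFGF4 replicate 2 and at 7.95 FPKM in PBS replicate 3.

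Stretches of 250 bases before the annotated start (RefSeq, GRCm38.p6) are shown for Sprr2h, Sprr2i and Sprr2d of the same cluster, and for Krtdap. Of these, Sprr2h and Krtdap fell. The Sprr2 stretches were chosen because 7 of the 10 Sprr2 promoters hold an AP-1 site, an octamer and TATAAA there. Sprr2a1, Sprr2a2 and Sprr2a3 hold none of these motifs, and Sprr2g, which fell, is not among the 10. Krtdap holds an AP-1 site and TATAAA but no octamer, as does Lor, which was not called. Capitals mark the AP-1 site (TGANTCA, bound by Fos and Jun proteins) and the octamer (ATTTGCAT, bound by POU proteins). They are Sprr2h at chr3:92385435-92385684, Sprr2i at chr3:92407741-92407990, Sprr2d at chr3:92338890-92339139 and Krtdap at chr7:30787655-30787904, all on the plus strand.
Sprr2h: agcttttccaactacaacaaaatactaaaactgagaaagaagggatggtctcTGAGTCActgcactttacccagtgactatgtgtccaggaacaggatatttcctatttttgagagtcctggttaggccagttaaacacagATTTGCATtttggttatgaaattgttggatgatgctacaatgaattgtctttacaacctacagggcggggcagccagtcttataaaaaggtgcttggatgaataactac
Sprr2i: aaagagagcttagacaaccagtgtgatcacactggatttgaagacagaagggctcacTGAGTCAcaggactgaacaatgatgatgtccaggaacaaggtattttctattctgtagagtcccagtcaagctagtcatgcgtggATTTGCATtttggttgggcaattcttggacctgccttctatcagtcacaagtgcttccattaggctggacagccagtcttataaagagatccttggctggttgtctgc
Sprr2d: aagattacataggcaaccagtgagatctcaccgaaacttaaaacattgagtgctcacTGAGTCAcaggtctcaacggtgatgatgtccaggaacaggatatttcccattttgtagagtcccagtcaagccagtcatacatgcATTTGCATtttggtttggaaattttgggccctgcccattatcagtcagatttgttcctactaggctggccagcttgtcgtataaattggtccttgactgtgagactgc
Krtdap: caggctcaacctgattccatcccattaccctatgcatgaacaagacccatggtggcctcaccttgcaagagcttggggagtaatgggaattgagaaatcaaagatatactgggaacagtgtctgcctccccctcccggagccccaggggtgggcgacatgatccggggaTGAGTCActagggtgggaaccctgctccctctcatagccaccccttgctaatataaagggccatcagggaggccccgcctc

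In Sprr2h, Sprr2i and Sprr2d the AP-1 site began 198, 193 and 193 bases before the start, the octamer 109, 108 and 108 bases before it, and TATAAA 29 bases before it. Motifs were searched on both strands, and none of the 3 overlaps another in these stretches. Of 47 members with a RefSeq promoter, 16 held an AP-1 site (34.0%), beside 6.87% of 27025 promoters of the same length. These 16 were 7 of the 10 Sprr2 promoters and those of Sprr1a, Sprr1b, Flg, Flg2, Ivl, Lor, Rptn, Krtdap and Sbsn. The 7 Sprr2 promoters matched one another at 60.1% to 89.3% of aligned bases, so motifs that they share are not independent counts. Of 13 Lce1 and 6 Lce3 promoters 0 held it. The same 7 Sprr2 promoters held the octamer, which was searched after the sequences had been seen and is in 1.61% of all promoters, and TATAAA, which is in 13.0% of all. Krtdap held an AP-1 site 81 bases and TATAAA 30 bases before its start, as part of the 20 members with TATAAA. The letters of KLF sites (CACCC) were in 46.8% of members and 51.3% of all promoters, and those of ETS sites (AGGAAG) in 48.9% and 29.2%. These are matches of letters only. The motif set did not separate Sprr2h, which fell, from Sprr2d, whose difference did not pass the test.

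**Figure D3:**
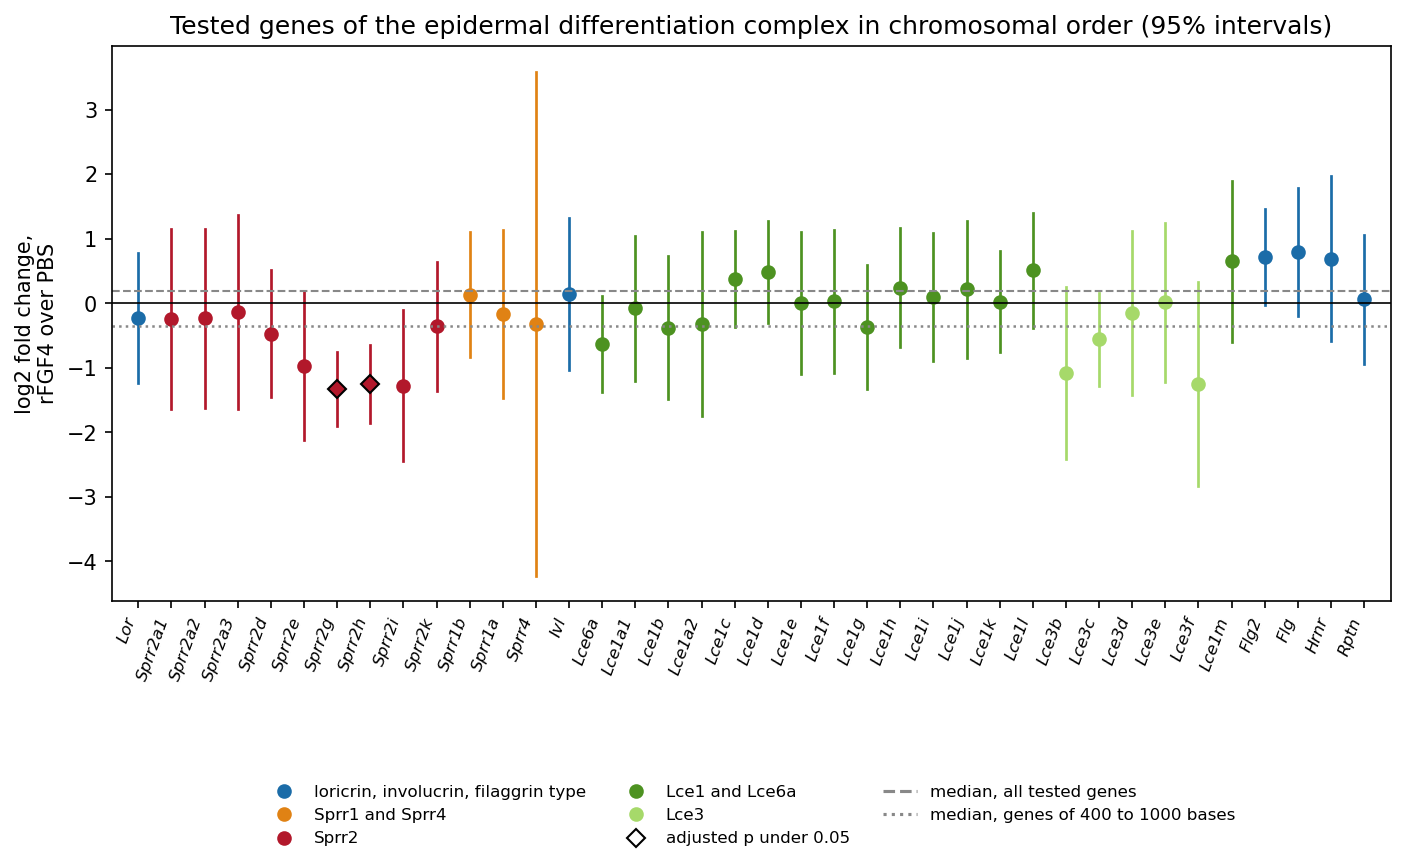
Log2 fold change of rFGF4 over PBS with its 95% interval (vertical axis) for the 38 tested members on chromosome 3 in chromosomal order (horizontal axis, not to scale), coloured by family, with diamonds for adjusted p under 0.05. The dashed and dotted lines are the medians of all tested genes (0.19) and of those of 400 to 1000 bases (-0.34). The lowest points are in the Sprr2 and Lce3 stretches, and the intervals of most genes cross 0.

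These families lie together in the epidermal differentiation complex, where 42 of the 51 genes span 1.32 megabases of chromosome 3. Along it the tested genes from Sprr2e to Sprr2i, which leave out Sprr2f, held log2 fold changes of -0.97 to -1.33. Flg2, Flg and Hrnr held 0.70 to 0.79. With the length trend removed the former were -0.52 to -0.88, and Flg2, Flg and Hrnr were 0.29, 1.13 and 0.21. Whether place on the chromosome has a part in these values was not tested. LCE proteins are small, cysteine-rich and among the last to be added to the envelope, and 0 of 20 tested Lce genes were called (limma, 0 also at an unadjusted p under 0.05). Lce1c, the most abundant by mean, measured 53.4, 46.6 and 32.8 FPKM with PBS and 36.5, 77.7 and 63.2 FPKM with rFGF4. Lce1a1 was at 67.7, 59.2 and 27.5 FPKM with PBS and 24.7, 65.1 and 58.3 FPKM with rFGF4. Within each group 1 library was low for both genes, PBS replicate 3 and rFGF4 replicate 1, and the groups overlapped.

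Lce1b (62.8, 51.9 and 32.6 FPKM with PBS and 17.9, 58.8 and 46.0 FPKM with rFGF4) and Lce1d (36.7, 33.3 and 19.9 FPKM with PBS and 26.8, 55.6 and 45.1 FPKM with rFGF4) had the same low libraries. The log2 fold changes of Lce1c, Lce1a1, Lce1b and Lce1d were 0.38 (SE 0.31), -0.077 (SE 0.47), -0.37 (SE 0.46) and 0.49 (SE 0.33), with limma adjusted p of 0.365 to 0.929. Over all 14 Lce1 genes the lowest library was PBS replicate 3 for 7 and rFGF4 replicate 1 for the other 7, and rFGF4 replicate 2 was the highest for 8. Of the 14, 10 had a positive log2 fold change as deposited, with a median of 0.067, and 13 with the length trend removed. Values this near 0 turn with any common shift, and relative to the library medians 6 of 14 were positive. Lce6a, a more distant member of the family, had 7.94 ± 1.68 FPKM with PBS and 5.31 ± 2.32 FPKM with rFGF4 (SD, n = 3 each, limma adjusted p = 0.219).

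Lce3 genes, whose human counterparts are known to be raised after barrier injury and in psoriasis, were much lower in these libraries than Lce1 genes. The 5 tested members had mean levels of 1.92 to 5.30 FPKM over all libraries. Of these, 4 had negative log2 fold changes (median -0.56), and 3 of 5 with the length trend removed (median -0.033). Their transcripts are 491 to 611 bases long, and all tested genes of 400 to 600 bases had a median of -0.59. Lce3c, the most abundant, was at 5.11, 7.98 and 5.67 FPKM with PBS and 2.69, 4.48 and 5.84 FPKM with rFGF4, with overlapping groups (log2 fold change -0.56, SE 0.30, limma adjusted p = 0.259). Lce3d and Lce3e, with log2 fold changes of -0.15 and 0.018 (limma adjusted p = 0.876 and 0.985), ranged over 1.77 to 6.54 FPKM and 1.46 to 4.86 FPKM in the 6 libraries. Lce3f, at 1.06, 3.54 and 3.52 FPKM with PBS and 0.333, 1.51 and 1.53 FPKM with rFGF4, had the most negative value, -1.25 (SE 0.66, limma adjusted p = 0.247). PBS replicate 1 lay among the rFGF4 values of this gene, so the groups overlapped. Lce3c, Lce3d, Lce3e and Lce3f share 24.2% to 43.0% of their 100-base stretches with other Lce3 transcripts, and their values are uncertain to that extent. Lce3a was too low to test, at 0.535 to 2.29 FPKM with PBS and 0 to 0.575 FPKM with rFGF4.

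**Figure D4:**
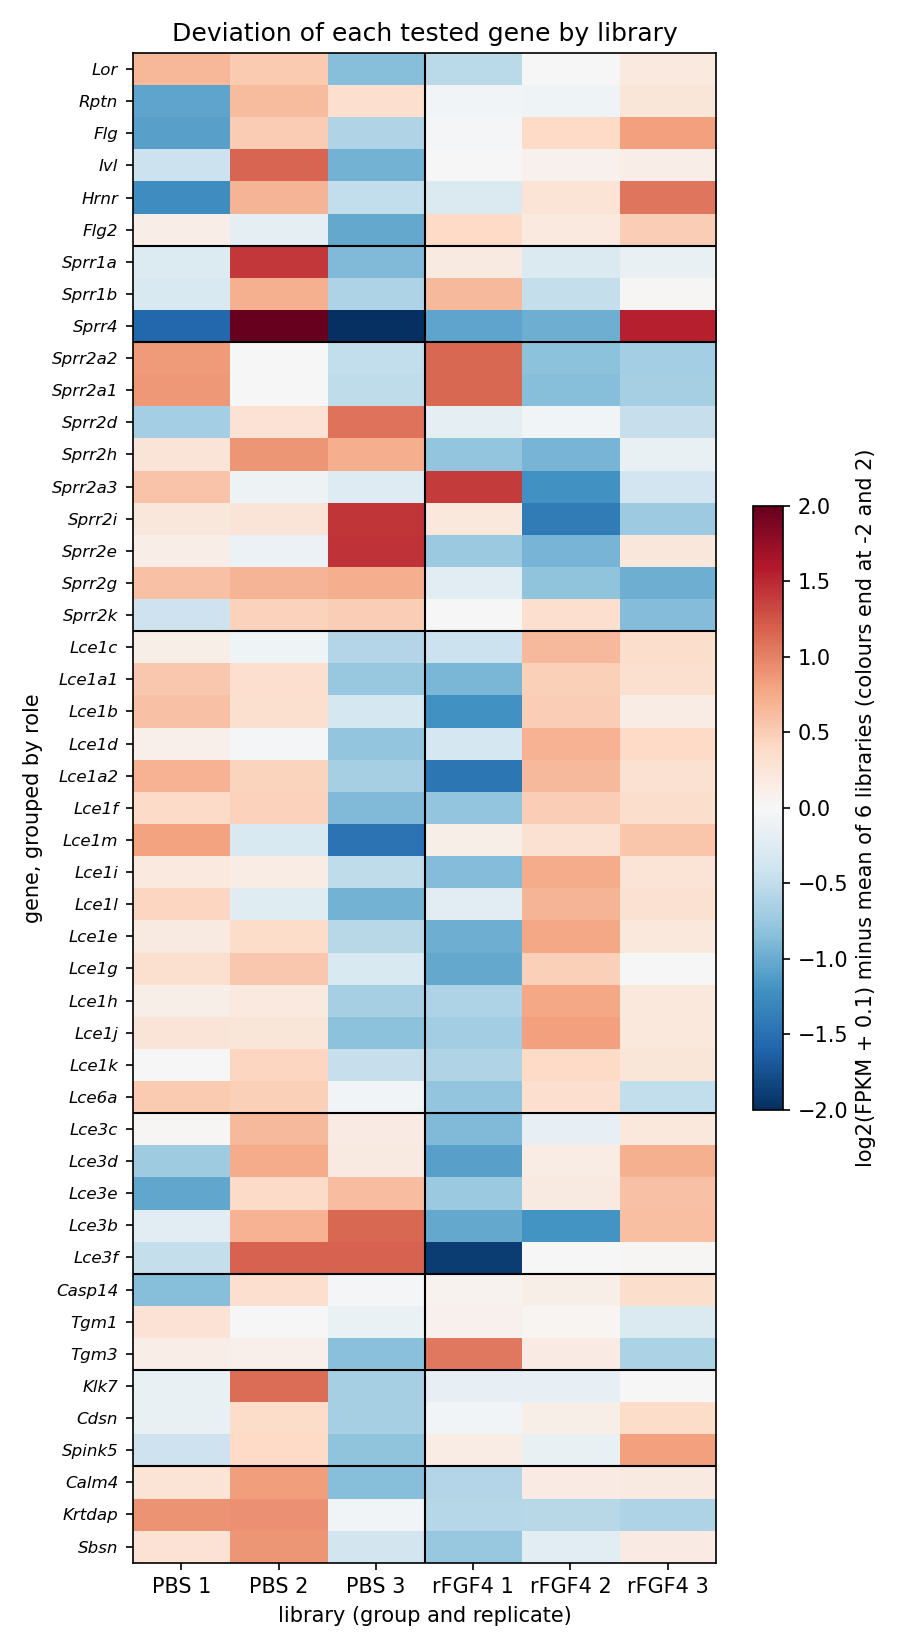
Deviation of log2(FPKM + 0.1) from the mean of the 6 libraries (colour, ending at -2 and 2) for the 47 tested members in rows grouped by role and the 6 libraries in columns. Lce1 genes are low together in PBS 3 and, all but Lce1m, in rFGF4 1. Sprr1a, Ivl, Klk7 and Sprr4 are high in PBS 2, and Krtdap, Sprr2g and Sprr2h are low in all 3 rFGF4 columns.

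Transglutaminases cross-link the envelope proteins, and caspase-14 is the protease that takes part in breaking down filaggrin. Casp14 measured 40.1, 92.0 and 71.9 FPKM with PBS and 76.2, 78.8 and 92.8 FPKM with rFGF4. Tgm1, the membrane-bound transglutaminase of the upper epidermis, was among the steadiest members at 10.6, 8.66 and 7.90 FPKM with PBS and 9.18, 8.86 and 7.05 FPKM with rFGF4. Tgm3 gave 4.16, 4.09 and 2.09 FPKM with PBS and 8.05, 4.28 and 2.42 FPKM with rFGF4. In all 3 genes the groups overlapped. The log2 fold changes were 0.36 (SE 0.30), -0.11 (SE 0.16) and 0.40 (SE 0.46), with limma adjusted p of 0.462, 0.685 and 0.599. For Tgm1 the 95% interval ran from -0.50 to 0.27, the narrowest of these 3 genes.

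Shedding of cornified cells depends on corneodesmosin, which holds them together, on the protease Klk7, which cleaves it, and on the Spink5 product, which inhibits kallikreins. Klk7 was at 73.9, 178 and 51.7 FPKM with PBS and 73.2, 73.2 and 81.7 FPKM with rFGF4. Cdsn was at 12.7, 18.1 and 8.79 FPKM with PBS and 13.4, 15.2 and 18.1 FPKM with rFGF4. Spink5 was at 6.20, 11.1 and 4.72 FPKM with PBS and 9.24, 7.47 and 14.8 FPKM with rFGF4. The highest PBS library was replicate 2 and the lowest replicate 3 for each of the 3 genes, and the rFGF4 values overlapped them. Their log2 fold changes were -0.21, 0.29 and 0.55 (SE 0.42, 0.26 and 0.37), with limma adjusted p of 0.773, 0.501 and 0.352, and that of Klk7 was 0.30 without PBS replicate 2.

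Krtdap, Sbsn and Calm4 encode proteins made by differentiating keratinocytes. Krtdap, keratinocyte differentiation-associated protein, is secreted by suprabasal cells and lies on chromosome 7 (GRCm38, 30787896 to 30791097, plus strand). It measured 353, 357 and 184 FPKM with PBS and 128, 129.8 and 124 FPKM with rFGF4. All 3 rFGF4 libraries were below all 3 PBS libraries and close to one another, while PBS replicate 3 was well under the other PBS libraries. The means were 298 ± 99.0 and 127 ± 2.99 FPKM (SD, n = 3 each), a log2 fold change of -1.17 (SE 0.27, limma adjusted p = 0.0409), or 2.24-fold lower. As a percentage of the summed FPKM of 9 spinous genes it stood at 26.2%, 19.9% and 33.3% with PBS and 9.06%, 11.9% and 10.7% with rFGF4, again without overlap.

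For Krtdap too the size of the difference varied less than the call, at -1.004 to -1.48 on the log2 scale when a library was left out. It passed without PBS replicate 3 (limma adjusted p = 0.0206) but not without PBS replicate 1 or 2 or rFGF4 replicate 1, 2 or 3 (0.0858 to 0.127), nor with quantile normalization (0.0815) or centring on the spinous genes (log2 fold change -1.33, adjusted p = 0.464). Its transcript is 470 bases long, and 31.2% of genes of 400 to 600 bases were called lower. With the length trend removed the log2 fold change was -0.55 (adjusted p = 0.375). The authors' deposited table gives it a q-value of 5.50e-06.

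Sbsn, which encodes the suprabasal protein suprabasin, was at 109, 166 and 69.5 FPKM with PBS and 53.0, 77.7 and 100.4 FPKM with rFGF4. Calm4, a calmodulin-like protein of skin, was the most abundant member, at 431, 637 and 198 FPKM with PBS and 238, 399.9 and 407 FPKM with rFGF4. In both genes PBS replicate 2 was the highest library, and the groups overlapped. The log2 fold changes were -0.54 (SE 0.36, limma adjusted p = 0.358) and -0.16 (SE 0.45, limma adjusted p = 0.837), that of Calm4 being positive with quantile normalization or the length trend removed.

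Other genes of the epidermal pathway were read from lists chosen by function. Of 9 basal and 9 spinous keratinocyte genes, 0 were called by limma (1 and 0 at an unadjusted p under 0.05), and their summed levels overlapped, at 2119 to 6496 FPKM (basal) and 552 to 1797 FPKM (spinous) with PBS and 2273 to 3677 FPKM and 1089 to 1408 FPKM with rFGF4. Of 17 other granular-layer genes 0 were called (2 at an unadjusted p under 0.05, 1 lower and 1 higher). The lower was Cnfn, which encodes the envelope protein cornifelin. It was at 55.5 ± 6.77 FPKM with PBS and 41.7 ± 5.53 FPKM with rFGF4 (SD, n = 3 each, limma adjusted p = 0.112). Its log2 fold change of -0.41 became 0.15 with the length trend removed. The higher was Tgm5, with a log2 fold change of 0.60 (limma adjusted p = 0.113), and 0.37 with the length trend removed. Of 17 other desquamation proteases and inhibitors 0 were called (1 at an unadjusted p under 0.05), the nearest being Klk9 (5.85 ± 1.63 and 9.09 ± 0.311 FPKM, limma adjusted p = 0.0714).

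Genes of ceramide and lipid synthesis supply the lipids that seal the envelope. At an unadjusted limma p under 0.05, 5 of 24 were higher and 0 lower. By adjusted p 1 of 24 rose (4.17%, beside 8.46% of all tested genes). This was Ugcg, glucosylceramide synthase, at 13.0, 14.3 and 16.7 FPKM with PBS and 25.3, 21.6 and 28.8 FPKM with rFGF4 (log2 fold change 0.78, SE 0.15, limma adjusted p = 0.0295). Of 26 regulators of terminal differentiation 6 were higher and 1 lower at an unadjusted limma p under 0.05. By adjusted p 2 rose (7.69%, again near the share of all tested genes). Among them was Ahr, the aryl hydrocarbon receptor, which went from 3.80 ± 0.190 to 6.67 ± 1.22 FPKM (SD, n = 3 each, limma adjusted p = 0.0323). Klf4, a barrier transcription factor, was at 33.1, 33.5 and 25.4 FPKM with PBS and 52.9, 51.8 and 40.5 FPKM with rFGF4 (limma adjusted p = 0.0509). Its groups did not overlap, with rFGF4 higher, as was so for 30.9% of all tested genes. After removal of the length trend Ugcg and Ahr were no longer called, with adjusted p by limma of 0.240 and 0.308. That of Klf4 was then 0.322.

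Of 10 genes of wound-edge keratinocytes 2 fell (20%, beside 3.62% of all tested genes), and 3 were lower at an unadjusted limma p under 0.05. Those called were Stfa3 and Stfa1, which encode stefin A inhibitors of cysteine proteases and are also made by neutrophils. The share of all genes called lower varied with transcript length and was 19.8% at 400 to 1000 bases. With the length trend removed 1 of the 10 was called. The keratins that mark wound-edge keratinocytes were not called, with log2 fold changes of -0.17 for Krt6a, -0.0041 for Krt6b, 0.0040 for Krt16 and -0.35 for Krt17 (limma adjusted p of 0.702 to 0.997). Stfa3 measured 320.4, 271 and 246 FPKM with PBS and 106, 81.1 and 79.5 FPKM with rFGF4 (log2 fold change -1.65, SE 0.18, limma adjusted p = 0.00582), and -0.98 after removal of the length trend, where it was not called (adjusted p = 0.0796). Stfa1 went from 60.2 ± 17.8 to 16.6 ± 1.99 FPKM (SD, n = 3 each, log2 fold change -1.82, limma adjusted p = 0.00839) and still passed the test after that removal (limma adjusted p = 0.0421). S100a8, a calgranulin subunit of the same list and of neutrophils, was at 123, 316 and 612 FPKM with PBS and 43.9, 105 and 45.0 FPKM with rFGF4 (limma adjusted p = 0.0567).

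Markers of other tissues of the skin were compared beside these results. Fibroblast genes moved with the groups, with 5 of 7 higher with rFGF4 (71.4%, beside 8.46% of all tested genes) and summed levels of 2756 to 3473 FPKM with PBS and 4949 to 5547 FPKM with rFGF4. After removal of the length trend 0 of the 7 were called (limma, Dcn nearest at an adjusted p of 0.0668). Of 16 hair, 7 skeletal muscle, 5 adipocyte and 7 macrophage and neutrophil genes, 0 were called by limma (0, 0, 1 and 2 at an unadjusted p under 0.05). Their summed levels overlapped between the groups. The muscle sum spanned 1438 to 4649 FPKM over the 6 libraries, and the hair sum was lowest in rFGF4 replicate 3 at 84.8 FPKM. PBS replicate 3 had the highest macrophage and neutrophil sum, 1927 FPKM, beside 664 to 1593 FPKM in the other libraries. No fibroblast, basal or spinous marker was at 0 in any library. The part of these cell types in the lower Krtdap, Sprr2g and Sprr2h values was not tested.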

How the data were processed

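RNA was measured in whole diabetic mouse skin, 3 PBS and 3 rFGF4 libraries, as strand-marked poly(A) paired-end libraries, per the labels' protocols. Tools listed in the submitters' processing notes are fastp, edgeR, StringTie and HISAT2. The build listed there is GRCh38, a human build, while organism and symbols are mouse, so the reference used is unsure, and strand use in counting is not given in the sources used here. The deposited values were taken as the authors' FPKM because of their range and the use of StringTie, as no unit is given in the file header. The authors also deposited a p-value and its adjusted q-value.

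Genes at or above 1 FPKM in 3 or more libraries were tested with limma-trend (robust, two-sided, group as the only term) on log2(FPKM + 0.1), and called at a Benjamini-Hochberg adjusted p under 0.05. Exact permutation of 3 against 3 cannot go below p = 0.1 and was not used. GENCODE M21 (GRCm38) gave lengths (96.7% of tested genes) and positions, taking the longest principal transcript, and promoters from RefSeq GRCm38.p6. The length trend was removed by loess (span 0.3, degree 1) in each library. Other alternatives were pseudocounts of 1 and 0.01, no filter or 5 FPKM, median centring, quantile normalization, the replicate number as a block, and each library left out; centring on spinous genes was added after seeing the data. Members and lists were chosen with earlier results of these data known. Named in full are called members and up to 4 of highest mean FPKM per role group, and up to 3 of each other list. A gene that this rule names is not reported here. Genes with no row, such as Sprr3, were not analysed here. The script was tested on simulated data. R 4.3.3, limma 3.58.1 and Python 3.11.15 were used.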

Additional observations from a re-analysis of the deposited data

How the results depend on the processing

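Other pseudocounts and filters moved no count by more than 1.5 times, but most other settings did. The 1773 genes called became 755 with median centring, 749 with quantile normalization, 306 with the length trend removed, 233 with the replicate block and 211 with centring on spinous genes, and 156 to 890 with a library left out. The 3 members called became 0 with the length trend removed, the block or spinous centring, and 0 to 1 with a library left out. The members' median log2 fold change of -0.14 was -0.32 with median centring, 0.0034 with the 5 FPKM filter (35 members, 17 negative), 0.076 with the length trend removed and -0.29 to 0.20 with a library left out. Pairing by replicate number was not evident: deviations of same-numbered libraries correlated at 0.18, -0.067 and -0.13 across genes. Pairs of unlike number ran from -0.33 to 0.35, and with so few libraries a pairing is not excluded. Of the 23 named members, 13 changed sign, none of them called. With median centring Rptn was -0.12, Ivl -0.031 and Sprr1b -0.048, and with spinous centring -0.099, -0.013 and -0.030. Calm4 was 0.23 with quantile normalization. With the length trend removed Calm4 was 0.081, Lce1b 0.076, Sprr1a 0.15, Rptn -0.27 and Lce1a1 0.32. Leaving out a library gave -0.45 to 0.39 for Rptn, -0.29 to 0.77 for Ivl, -0.16 to 0.52 for Sprr1b, -0.63 to 0.21 for Calm4, -0.72 to 0.14 for Lce1b, -0.65 to 0.50 for Sprr1a, -0.48 to 0.36 for Lce1a1, -0.20 to 0.0067 for Tgm1, -0.71 to 0.053 for Lor, -0.87 to 0.14 for Sprr2a1, -0.87 to 0.13 for Sprr2a2, -0.60 to 0.30 for Klk7 and -0.031 to 0.82 for Tgm3. The causes were not tested. Depth is unknown, so what it limits cannot be stated.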
